A study of Mus musculus with 6 samples.

Results

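The secretions of the mouse prostate lobes were followed here through 10 genes, listed in the deposited table as PBSN, MSMB, DEFB50, 9530002B09RIK, TGM4, SPINK1, SPINK5, SBP, SBPL and AZGP1 and written below with their mouse symbols. They are 10 of the 24908 genes in the table and were chosen by name with their levels in the same libraries already known. Their lobe pattern, their abundance and their difference between genotypes are therefore a description, with no test. All 10 reached a mean of 1 FPKM over the 6 libraries, as did 12361 genes of the table, and each of these 12361 genes entered the comparisons below. FPKM count fragments per kilobase of a transcript and per library depth, so that levels of different genes are compared per length of transcript.

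Bulk RNA-seq covered 3 lobes, namely the anterior (AP), dorsolateral (DLP) and ventral prostate (VP), of 1 wild-type (WT) male mouse and 1 male littermate heterozygous for a human c-MYC transgene (MYC), both of the FVB strain and 12 weeks old. The transgene of this Hi-MYC model is driven in the prostate epithelium by ARR2Pb, a promoter built from that of probasin, the product of a gene described here. Both mice had been fed a purified diet since weaning. Each lobe was dissociated into a cell suspension, and poly(A) RNA of all its cells gave 1 library per lobe and genotype, so no value has a replicate, no p-value was computed and genotype and animal cannot be told apart in any comparison of MYC with WT. The 3 lobes of a mouse are not replicates of its genotype.

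The 6 libraries had an estimated 25.5 M (WT AP) to 50.2 M (MYC AP) mapped reads, and the FPKM of a library summed to between 374085 and 483143. At that depth the exact 95% binomial interval of a member's level had a half-width of at most 4.94% of that level at 100 FPKM and above, which covers counting error only. The luminal keratins Krt8 and Krt18, which mark the secretory epithelium, had between 388 and 1611 FPKM in all 6 libraries. The row listed as Myc had 230.0 FPKM in AP, 200.6 in DLP and 226 in VP of the WT mouse, and 231, 586 and 1696 FPKM in these lobes of the MYC mouse, so that it did not separate the AP libraries by genotype. Values of 0 are given below only as listed, since an estimate of 0 in a table without counts can be a failed one.

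Luminal cells of the prostate make the proteins of the prostatic fluid, which joins the secretion of the seminal vesicles in the ejaculate. Many of their genes are switched on by androgens and fall silent after castration, and each lobe of the rodent prostate puts out its own mixture. The genes described here encode a lipocalin, a microseminoprotein, an antimicrobial peptide, a transglutaminase, inhibitors of serine proteases, polyamine-binding proteins and a zinc-binding glycoprotein.

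In the WT mouse the 10 genes held 1.96% of the FPKM sum in AP, 10.2% in DLP and 11.9% in VP. In the MYC mouse their shares were 1.88%, 1.53% and 4.96%. The share was thus similar between genotypes in AP and lower in MYC in the other lobes. Defb50 was the gene with the highest FPKM of the whole WT DLP library, at 4.30% of the sum, and Spink1 that of WT VP, at 6.15%. Sbpl led the MYC VP library with 4.17%, and without Sbp and Sbpl the share in MYC VP was 0.792%. Among the 20 genes with the highest FPKM, the members numbered 2 in WT AP, 4 in WT DLP and 5 in WT VP, and 2, 1 and 2 in the MYC libraries of these lobes.

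**Figure D1:**
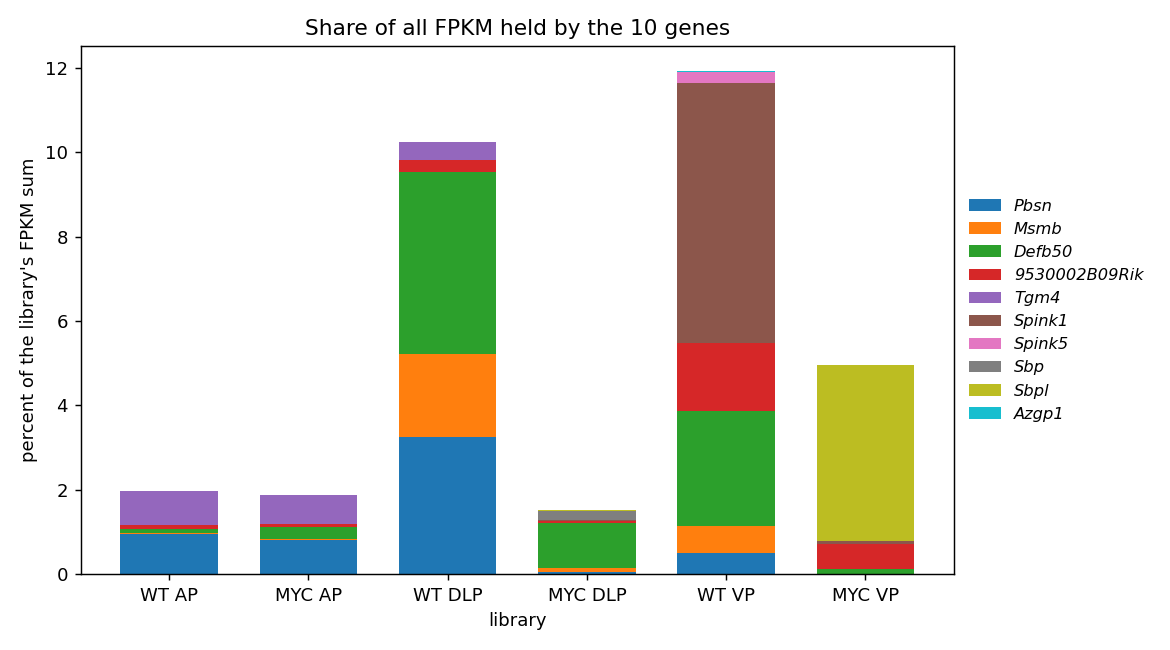
Percent of each library's FPKM sum (y axis) held by the 10 genes, stacked by gene, for the 6 libraries (x axis; 1 library each). The bars reach 10.2% in WT DLP and 11.9% in WT VP and 1.53% and 4.96% in the MYC libraries of these lobes, where the VP bar is mostly Sbpl.

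The 3 WT lobes differed in which of these genes they carried. Against WT DLP, WT VP was at least 2-fold higher in 3 members (9530002B09Rik, Spink1 and Spink5), beside 2.63% of all genes compared, and at least 2-fold lower in 4 (Pbsn, Msmb, Tgm4 and Sbp), beside 6.29%. Against WT AP, WT VP was higher in 6 members (Msmb, Defb50, 9530002B09Rik, Spink1, Spink5 and Azgp1), beside 7.89%, and lower in Tgm4 alone, beside 10.3%. WT DLP was higher than WT AP in 6 members (Pbsn, Msmb, Defb50, 9530002B09Rik, Sbp and Azgp1), beside 3.85%, and lower in none, beside 1.31%. Nothing is read from these shares, since the members were selected on these very values. All such counts use the log2 ratio, log2 of (FPKM + 1) of the first library over (FPKM + 1) of the second, which understates the difference of genes near 1 FPKM.

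In the MYC mouse the same count was taken lobe by lobe. In AP, 5 members were at least 2-fold higher in MYC than in WT (Msmb, Defb50, Spink1, Sbp and Sbpl), beside 2.05% of all genes compared, and none was 2-fold lower, beside 0.599%. In DLP, 4 members were higher (Spink1, Spink5, Sbp and Sbpl), beside 6.46%, and the other 6 were lower, beside 3.39%. In VP, Sbpl alone was higher, beside 6.88%, and 7 were lower (Pbsn, Msmb, Defb50, 9530002B09Rik, Spink1, Spink5 and Azgp1), beside 5.95%. At a 16-fold threshold, Sbp was higher in AP (0.178% of all genes higher), Spink1, Sbp and Sbpl were higher (0.275%) and Pbsn, Msmb and Tgm4 lower (0.138%) in DLP, and Sbpl was higher (0.178%) and Pbsn, Msmb, Defb50, Spink1 and Spink5 lower (0.162%) in VP. The median log2 ratio of the 10 members in AP was 1.16, that in DLP -2.54 and that in VP -3.58, against 0.13, 0.03 and 0.04 over all genes compared. Over the 9 members above 0 in both AP libraries the median was 0.81, and over the 8 above 0 in both VP libraries -4.75, with none of the 8 at least 2-fold higher. The members were also selected on these differences, so their counts are not read against the background. In bulk RNA, fewer cells of a type and less RNA per cell cannot be told apart.

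**Figure D2:**
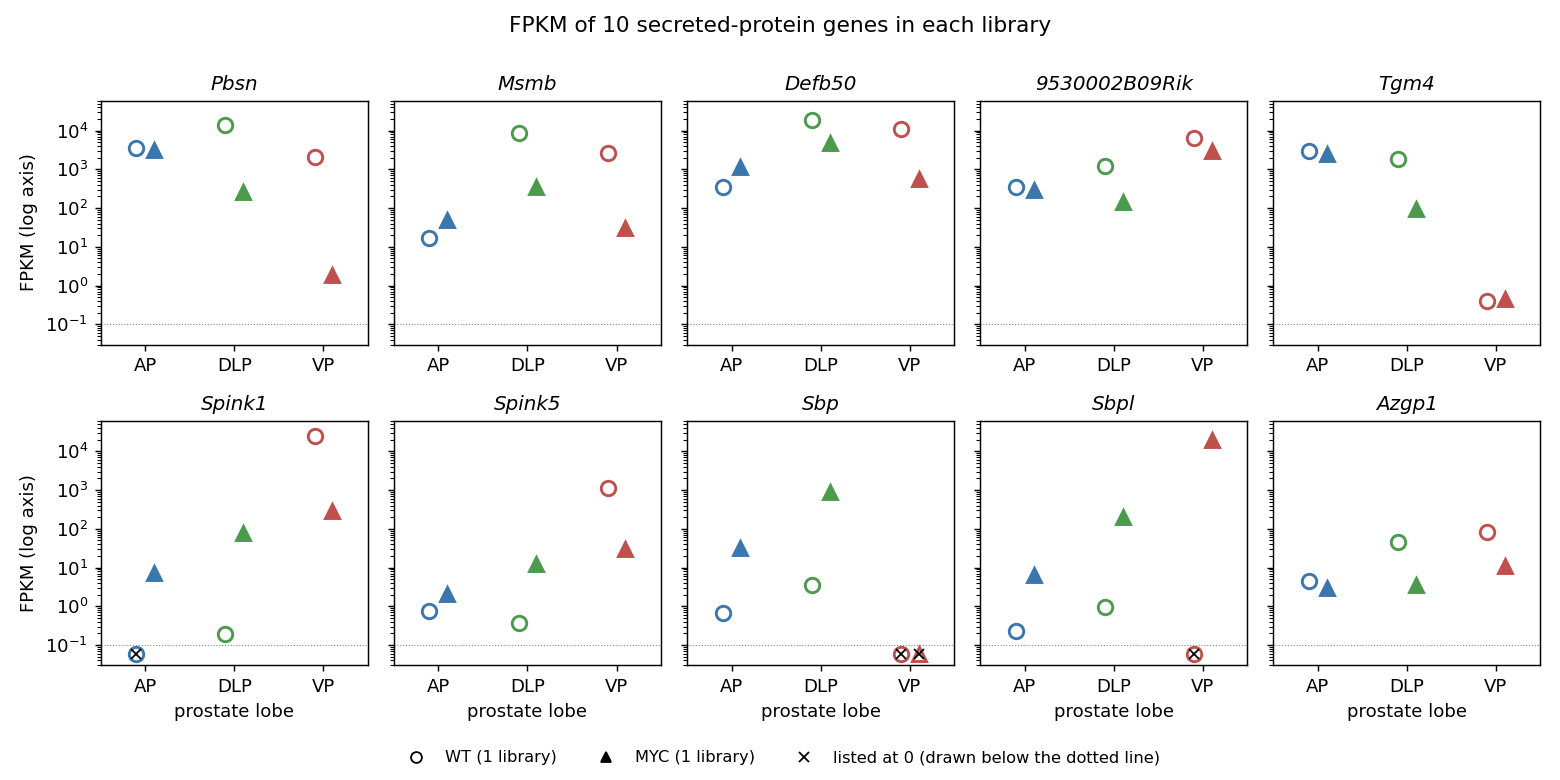
FPKM (log axis) of each of the 10 genes in the AP, DLP and VP libraries (x axis), with WT as open circles and MYC as filled triangles, 1 library each, and values listed at 0 drawn with a cross below the dotted line. Pbsn runs from 14037 FPKM in WT DLP to 1.90 FPKM in MYC VP, whereas Sbpl runs from 0 in WT VP to 20155 FPKM in MYC VP.

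Pbsn (chrX:77837898-77853500 in GRCm38.p6, as are all positions of genes below) encodes probasin, a secreted lipocalin whose promoter is the standard tool for expressing transgenes in prostate epithelium. It had 3597 FPKM in WT AP, 14037 FPKM in WT DLP and 2055 FPKM in WT VP. In the MYC mouse it had 3084 FPKM in AP, 267 FPKM in DLP and 1.90 FPKM in VP. The AP libraries were thus within 1.17-fold of each other, while MYC DLP was 52.5-fold and MYC VP 1080-fold below WT. No gene among the 12361 had a lower log2 ratio in VP than the -9.47 of Pbsn. The counting interval of the MYC VP value ran from 1.40 to 2.53 FPKM. The range between lobes, 6.83-fold in WT, was 1621-fold in MYC.

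Msmb (chr14:32142023-32158327) encodes beta-microseminoprotein, one of the main proteins of human seminal plasma. Its FPKM were 16.4 in WT AP, 8601 in WT DLP and 2664 in WT VP, and 48.7, 346 and 30.0 in the same order in MYC. The gene was therefore 24.9-fold lower in MYC DLP, 88.9-fold lower in MYC VP and 2.96-fold higher in MYC AP. The lobes lay 523-fold apart in WT and 11.5-fold apart in MYC, with DLP the highest lobe in both mice.

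Defb50 (chr8:21823539-21831296) belongs to the beta-defensins, small cationic antimicrobial peptides of epithelia. Its levels were 361 FPKM in WT AP, 18600.4 FPKM in WT DLP and 11123 FPKM in WT VP. The MYC libraries had 1147 FPKM in AP, 4866 FPKM in DLP and 549.6 FPKM in VP. The direction was that of Msmb in each lobe, 3.18-fold higher in MYC AP, 3.82-fold lower in MYC DLP and 20.2-fold lower in MYC VP. Even so, Defb50 stayed the member with the highest FPKM in MYC DLP, where it ranked as number 4 of the whole library. The ratio of Defb50 to Msmb was 22.0 in WT AP and 23.6 in MYC AP, but 2.16 in WT DLP against 14.1 in MYC DLP and 4.18 in WT VP against 18.3 in MYC VP.

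The beta-defensin on one side of it, Defb1, ends 28.354 kb before the start of Defb50. Defb1 had 105, 1500 and 572 FPKM in the AP, DLP and VP of WT, against 210.1, 421 and 20.1 FPKM in those of MYC, so that both neighbours were higher in MYC AP and lower in MYC DLP and VP. On the other side Defb2 had 10.5 (WT) and 5.43 FPKM (MYC) in DLP, and 6.13 (WT) and 2.50 FPKM (MYC) in VP. Some other beta-defensins went the opposite way in DLP and VP, though not in AP. Defb28 had at most 0.206 FPKM in the WT libraries and 1.47, 204 and 19.7 FPKM in MYC AP, DLP and VP. Defb29 had at most 0.107 FPKM in WT and 0.704, 79.6 and 54.0 FPKM in these MYC libraries. Of the 42 other genes with a Defb symbol in the table, 6 passed the filter on the mean, and of these 2 were at least 2-fold higher in MYC AP, 3 higher and 2 lower in MYC DLP, and 2 higher and 3 lower in MYC VP.

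Tgm4 (chr9:123034741-123067558) encodes the prostate transglutaminase, which crosslinks proteins of the rodent copulatory plug. It had 3016 FPKM in WT AP, 1804 FPKM in WT DLP and 0.400 FPKM in WT VP. The MYC mouse had 2545 FPKM in AP, 92.5 FPKM in DLP and 0.446 FPKM in VP. Both VP libraries were near 0, with counting intervals of 0.248 to 0.612 FPKM in WT and 0.269 to 0.697 FPKM in MYC that overlap. The AP libraries were within 1.19-fold of each other, and MYC DLP was 19.5-fold below WT DLP. The ratio of Pbsn to Tgm4, the members with the highest FPKM in AP, was 1.19 in WT AP and 1.21 in MYC AP. In DLP that ratio was 7.78 in WT and 2.89 in MYC. None of the 3 other transglutaminase genes that passed the filter followed Tgm4 in DLP: Tgm2 had 83.4 (WT) and 109 FPKM (MYC), Tgm1 had 3.80 and 10.02 FPKM, and Tgm5 had 0.484 and 1.46 FPKM.

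The gene 9530002B09Rik (chr4:122689259-122705135) has the synonyms Aump and Vpp1 in RefSeq, and its product is not described here. It was detected at 349 FPKM in WT AP, 1249 FPKM in WT DLP and 6649 FPKM in WT VP, and at 289 FPKM in MYC AP, 140.2 FPKM in MYC DLP and 2916 FPKM in MYC VP. VP was its highest lobe in both mice. MYC DLP was 8.91-fold and MYC VP 2.28-fold below WT, the smallest difference among the 7 members that were lower in VP, and it fell short of 2-fold when levels were taken relative to Krt8 and Krt18 (log2 ratio -0.92 against -1.19 as deposited). Its higher level in WT VP than in WT DLP also fell short of 2-fold on that scale (0.83 against 2.41), since the keratins themselves were higher in WT VP.

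Promoter sequences bear on these genes because the study asked how MYC affects androgen-driven transcription. RefSeq promoter windows (250 bases before to 50 bases after a transcription start, GRCm38.p6) were at hand for 6 of the 10 members, with 8 starts. The half-site of the androgen response element, AGAACA or its reverse complement TGTTCT, was looked for on both strands. At least 1 was present in 4 of the 8 windows, 1 each of 9530002B09Rik, Pbsn, Sbp and Azgp1. It was also present in 19.0% of 27025 promoter windows of the same length (16.8% of the windows of genes in the table). Those were 1 window per gene, whereas every start of a member was searched, and Sbp had several, of which 1 held a half-site. The half-site of Azgp1 lay 14 bases after its start. That of Pbsn lay 95 bases before its start, but past the start of a transcript in GENCODE. Tgm4 and Sbpl had none. The full palindrome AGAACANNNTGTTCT was in no member's window and in 1 of the 27025. A match is a description of letters and not a binding site, and a window without one says nothing of binding elsewhere. The bases upstream of the start are shown for 3 members with different patterns: 9530002B09Rik, the only one with 2 half-sites (in capitals, 71 and 52 bases before the start), a number reached by 2.58% of all windows; Tgm4, which was lower in MYC DLP with no half-site; and Sbpl, which was higher in the MYC lobes with none.
9530002B09Rik, chr4:122689009-122689258, plus strand: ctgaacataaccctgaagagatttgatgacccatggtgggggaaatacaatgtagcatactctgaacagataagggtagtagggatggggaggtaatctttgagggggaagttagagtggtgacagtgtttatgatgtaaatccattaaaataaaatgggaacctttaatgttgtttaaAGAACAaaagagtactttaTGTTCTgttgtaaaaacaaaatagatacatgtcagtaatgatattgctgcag
Tgm4, chr9:123034491-123034740, plus strand: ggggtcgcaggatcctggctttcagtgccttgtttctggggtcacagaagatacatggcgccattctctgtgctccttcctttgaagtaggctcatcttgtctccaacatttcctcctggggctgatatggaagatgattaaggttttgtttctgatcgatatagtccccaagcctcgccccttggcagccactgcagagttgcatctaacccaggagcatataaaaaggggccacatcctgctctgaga
Sbpl, chr17:23955274-23955523, minus strand: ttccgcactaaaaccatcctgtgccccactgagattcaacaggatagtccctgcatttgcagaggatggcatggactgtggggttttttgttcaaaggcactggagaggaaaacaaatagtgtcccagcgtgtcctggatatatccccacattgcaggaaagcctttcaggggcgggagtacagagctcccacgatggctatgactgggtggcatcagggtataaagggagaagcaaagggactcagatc

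Spink1 (chr18:43728069-43737237) and Spink5 (chr18:43959545-44022487) encode secreted inhibitors of serine proteases of the Kazal type. Spink1 is the trypsin inhibitor of the pancreas and of seminal fluid, and Spink5 encodes LEKTI, an inhibitor of kallikreins best known from skin. Spink1 was listed at 0 in WT AP and reached 0.197 FPKM in WT DLP and 25232 FPKM in WT VP. In the MYC mouse it had 7.04 FPKM in AP, 79.5 FPKM in DLP and 285 FPKM in VP. Spink5 had 0.763 FPKM in WT AP, 0.367 FPKM in WT DLP and 1104 FPKM in WT VP, against 2.09, 12.4 and 30.0 FPKM in the AP, DLP and VP of MYC. In WT, each was thus a gene of the VP library, whereas in MYC both were above 1 FPKM in all lobes. Spink5 was near 1 FPKM in both AP libraries, and its log2 ratio there, 0.81, was short of 2-fold.

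In VP, Spink1 was 88.4-fold and Spink5 36.8-fold lower in MYC than in WT. In DLP both went the other way, 404-fold higher for Spink1 and 33.7-fold for Spink5. The fold of Spink1 in DLP rests on a WT value whose counting interval runs from 0.0238 to 0.711 FPKM. MYC DLP reached 27.9% of the MYC VP level for Spink1 and 41.2% for Spink5. For the other members with VP as their highest MYC lobe, it reached 33.3% (Azgp1), 4.81% (9530002B09Rik) and 0.977% (Sbpl). The ratio of Spink1 to Spink5 was 22.8 in WT VP, 9.51 in MYC VP, 6.42 in MYC DLP and 3.36 in MYC AP.

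The Spink genes lie 222.308 kb apart on the same chromosome. Scgb3a2 and Gm94, the genes of the table between them, had at most 0.118 FPKM in any library, and Spink14 and Spink6, on the far side of Spink5, at most 0.504 FPKM. Of the 11 other genes with a Spink symbol, 2 passed the filter on the mean. Spink8 had 4.31, 4.62 and 1.58 FPKM in the AP, DLP and VP of WT, against 8.36, 15.3 and 1.24 FPKM in those of MYC. Spinkl was listed at 0 in WT AP and MYC VP, and had 5.88 FPKM in MYC AP and at most 0.521 FPKM in the other 3 libraries.

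Sbp (chr17:23922551-23945603) encodes spermine-binding protein, a secreted glycoprotein of the ventral prostate that binds polyamines, and Sbpl (chr17:23953085-23955273) its close relative 7.482 kb away. Sbp had 0.680 FPKM in WT AP and 3.58 FPKM in WT DLP and was listed at 0 in WT VP, and had 32.6 FPKM in MYC AP and 878 FPKM in MYC DLP and was again listed at 0 in MYC VP. Sbpl had 0.234 FPKM in WT AP and 0.981 FPKM in WT DLP and was listed at 0 in WT VP. Its MYC libraries had 6.42 FPKM in AP, 197 FPKM in DLP and 20155 FPKM in VP. Both genes were thus higher in MYC AP (47.9-fold for Sbp, 27.5-fold for Sbpl) and in MYC DLP (245-fold and 200.7-fold). The AP folds rest on WT values whose counting intervals run from 0.2497 to 1.48 FPKM for Sbp and from 0.0637 to 0.598 FPKM for Sbpl. No fold is given for VP, since WT is listed at 0. The ratio of Sbp to Sbpl was 2.91 in AP and 3.65 in DLP of the WT mouse and 5.08 and 4.46 in those of the MYC mouse, while MYC VP listed Sbp at 0 beside the highest Sbpl value of the series.

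How reads were divided between these 2 genes is uncertain. Their aligned coding sequences (GENCODE M1 on the NCBIM37 assembly) were 88.6% identical over 616 columns, with an identical run of 145 bases. Of the 796 windows of 75 bases, the read length, in the Sbpl transcript, 223 (28.0%) also occur in Sbp. That run lies further along the alignment (columns 218 to 362). The 180 coding bases shown begin at the first in-frame ATG after the opening codon of the annotated Sbp frame. They are shown because they differ by only 2 mismatches, which capitals mark.
Sbp: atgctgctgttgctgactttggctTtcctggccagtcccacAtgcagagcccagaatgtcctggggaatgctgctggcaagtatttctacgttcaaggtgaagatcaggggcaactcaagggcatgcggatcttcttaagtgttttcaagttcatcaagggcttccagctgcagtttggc
Sbpl: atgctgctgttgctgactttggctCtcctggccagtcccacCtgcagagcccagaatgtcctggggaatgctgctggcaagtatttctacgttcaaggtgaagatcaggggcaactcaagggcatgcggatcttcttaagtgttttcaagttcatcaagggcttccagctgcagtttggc
The sum of Sbp and Sbpl was at least 2-fold higher in MYC in all 3 lobes, against a listed 0 in VP. Of the genes around the pair, Dcpp2 and Dcpp3 on one side had at most 0.431 FPKM in any library. On the other side Prss30 had at most 0.046 FPKM, and Prss22, the next gene, had 5.60, 7.62 and 6.71 FPKM in the AP, DLP and VP of WT, against 7.15, 19.7 and 10.3 FPKM in those of MYC.

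Azgp1 (chr5:137981521-137990233) encodes zinc-alpha-2-glycoprotein, a secreted protein of the MHC class I fold that is abundant in human prostate. It was the least abundant member at its peak, with 4.63 FPKM in WT AP, 44.8 FPKM in WT DLP and 82.8 FPKM in WT VP. The MYC libraries had 2.88 FPKM in AP, 3.63 FPKM in DLP and 10.9 FPKM in VP. MYC was below WT in each lobe, by 1.61-fold in AP, 12.3-fold in DLP and 7.60-fold in VP. VP was its highest WT lobe as deposited, and DLP was when levels were taken relative to Krt8 and Krt18.

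**Figure D3:**
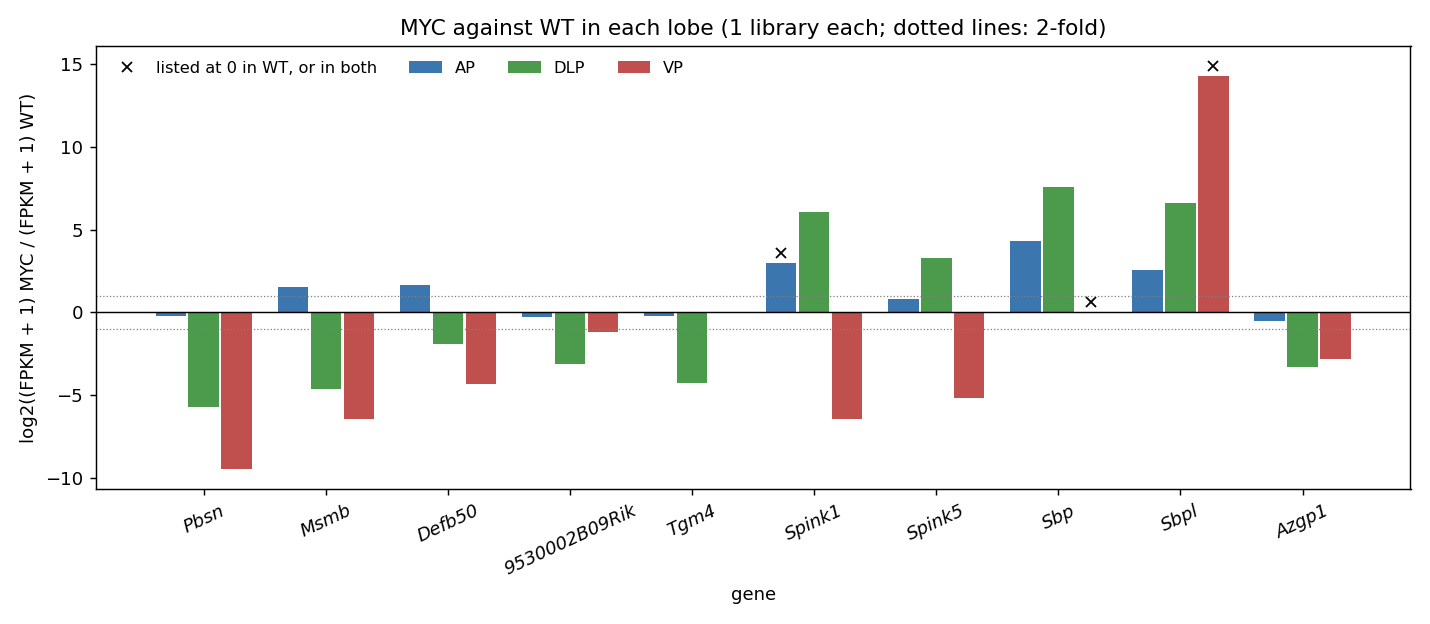
Log2 ratio of MYC against WT, log2((FPKM + 1) of MYC / (FPKM + 1) of WT), for each gene (x axis) in AP, DLP and VP, 1 library per bar and genotype, with dotted lines at 2-fold and crosses over values that involve a 0. The AP bars of Pbsn, 9530002B09Rik, Tgm4, Spink5 and Azgp1 lie within 2-fold on this scale (Spink5, near 1 FPKM, was 2.74-fold higher in MYC AP by FPKM alone), and Spink1 and Spink5 point up in DLP and down in VP.

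Across members, the distance between the highest and the lowest lobe was smaller in MYC than in WT on the log2(FPKM + 1) scale for 6 of the 10 (Msmb, Defb50, Tgm4, Spink1, Spink5 and Azgp1) and larger for Pbsn, 9530002B09Rik, Sbp and Sbpl. Of all genes compared, 39.7% had the smaller distance in MYC. With the VP values of Sbp and Sbpl taken as listed, the highest lobe was the same in both mice for 8 of the 10, and for 53.0% of all genes. The exceptions were Pbsn, highest in WT DLP and in MYC AP, and Sbpl, highest in WT DLP and in MYC VP. Of the 6 members lower in MYC DLP, 5 were also lower in MYC VP, and the other, Tgm4, was near 0 in both VP libraries. Of the 419 genes lower in MYC DLP, 55.4% were also lower in MYC VP. Nothing about the members is read from these shares, since the lobe patterns chose them. These lobes share their 2 mice, so the lobes are not independent of each other.

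**Figure D4:**
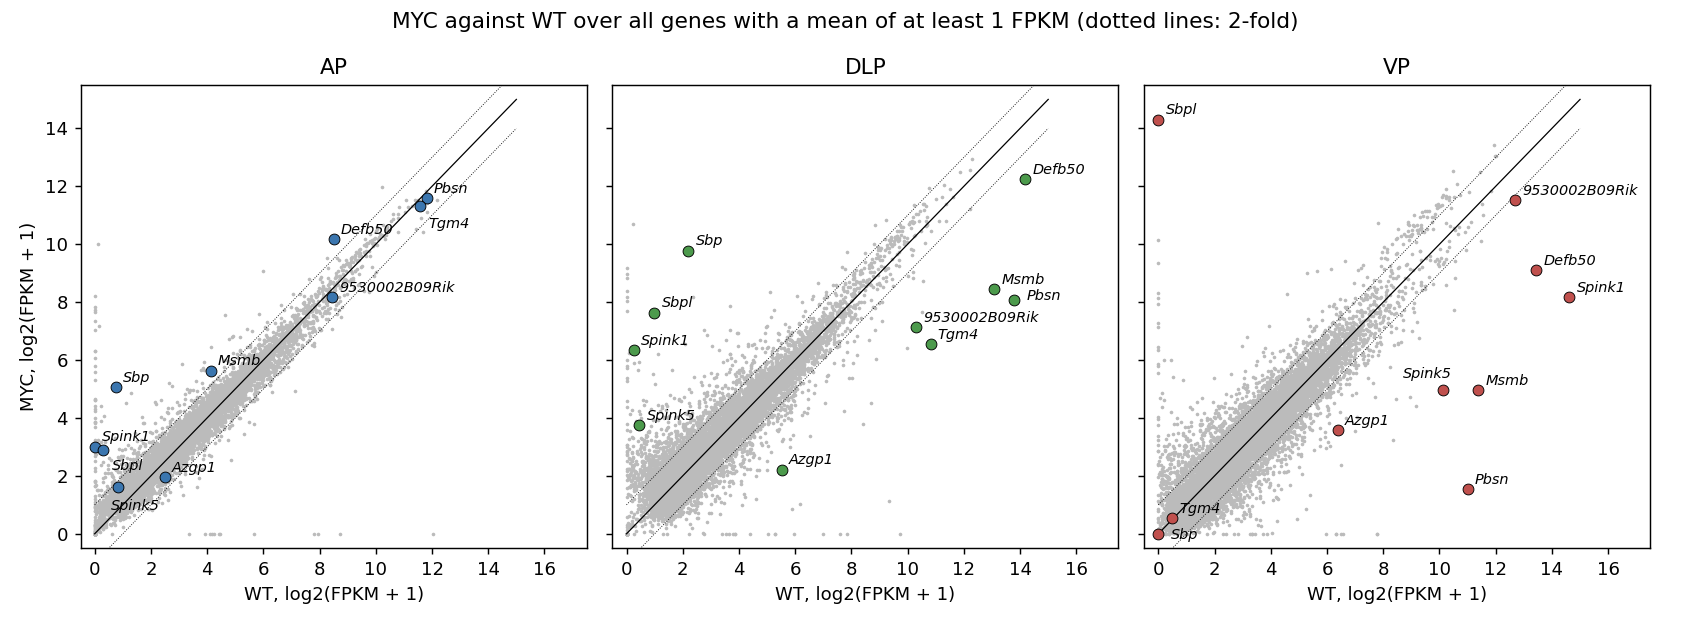
MYC against WT levels as log2(FPKM + 1) for the 12361 genes whose mean reached 1 FPKM (grey points) and the 10 members (coloured, named) in AP, DLP and VP, 1 library per axis, with the diagonal and 2-fold lines. In AP the most abundant members, Pbsn and Tgm4, sit within 2-fold of the diagonal, and in DLP and VP members lie on both sides of it, Sbpl at 20155 FPKM in MYC VP against 0 in WT VP.

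Other androgen-responsive genes were counted in the same way. Of 10 such targets, all of which passed the filter, 1 was at least 2-fold higher (Fkbp5) and 1 at least 2-fold lower (Pmepa1) in MYC AP, 0 passed 2-fold in DLP, and 2 were at least 2-fold lower in VP (Tmprss2 and Ndrg1). The median log2(FPKM + 1) ratio of the 10 was 0.18 for the AP, -0.21 for the DLP and -0.28 for the VP. Over the full list of 14, which keeps those that are also luminal markers, the medians were 0.18, -0.33 and -0.41. On that list 1 gene was at least 2-fold lower in DLP and 3 were in VP, with none higher in either. Tmprss2, a membrane serine protease, had 23.8 (WT) and 5.38 FPKM (MYC) in VP. Fkbp5, a target that encodes a chaperone of steroid receptors, had 11.1 (WT) and 38.0 FPKM (MYC) in AP, 43.8 (WT) and 32.2 FPKM (MYC) in DLP, and 64.7 (WT) and 44.6 FPKM (MYC) in VP. The pioneer factor Foxa1 had 149 (WT) and 88.3 FPKM (MYC) in VP, and Hoxb13, which marks the prostate, went from 174 to 172 FPKM.

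Other secreted proteins of the prostate differed in both directions. Of a list of 15, 10 passed the filter, and of these 5 were at least 2-fold higher in MYC AP (Ceacam10, Clu, Ltf, Pigr and Wfdc2) and none lower, where 2.05% of all genes compared were higher and 0.599% lower. In MYC DLP, 6 were higher (Clu, Lcn2, Ltf, Pigr, Slpi and Wfdc2; 6.46% of all genes) and Serping1 was lower (3.39%). In MYC VP, Pigr and Serping1 were lower (5.95%) and none was higher (6.88%). The same shares of all genes apply to the counts of beta-defensins, androgen targets and cell markers. Clu, which encodes the chaperone clusterin, had 304, 456 and 306 FPKM in the AP, DLP and VP of WT, against 741, 1636 and 385 FPKM in those of MYC. Lcn2, a lipocalin like probasin that binds bacterial siderophores, had 80.5 (WT) and 204 FPKM (MYC) in DLP, where Pbsn was 52.5-fold lower. Serping1, the inhibitor of the first complement component, had 227 (WT) and 78.6 FPKM (MYC) in VP.

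Markers of the cells in each library moved with some of these differences, and their part in the results was not tested. In VP, where 7 members were lower in MYC, the summed FPKM of Krt8, Krt18 and Krt19 was 3538 in WT and 3294 in MYC, and none of the 3 was 2-fold different. Of 10 fibroblast genes, 7 were lower in MYC VP (summed FPKM 1221 and 338), and 4 of 10 smooth muscle genes were lower (507 and 292). Of 12 hematopoietic genes, 6 were higher in MYC VP (141 and 394) and 10 in MYC DLP (277 and 1127). In DLP, where 6 members were lower, the 3 keratins summed to 1415 in WT and 2177 in MYC, with Krt19 alone past 2-fold (444 and 1035 FPKM). In that lobe 4 fibroblast genes were lower and 2 higher (summed FPKM 2439 and 1245), 4 smooth muscle genes were lower (613 and 363), and of 8 basal genes Krt5 and Trp63 were higher (1655 and 2167). In AP the 8 basal genes listed summed to 2427 in WT and 1326 in MYC, with Krt14 and Krt17 lower and Trp63 higher. Of the 10 fibroblast genes, 3 were higher in MYC AP (Col1a1, Col1a2 and Col3a1) and none lower (summed FPKM 2237 and 2630). None of the 3 keratins, the smooth muscle genes or the hematopoietic genes that passed the filter was 2-fold different in AP. The 10 endothelial genes summed to 215 and 230.5 in AP, 158 and 181 in DLP and 35.5 and 39.2 in VP, WT first.

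In AP, genes of the seminal vesicle, the gland that lies against this lobe, differed between the libraries. All 9 listed were above 0 in MYC AP, with a summed FPKM of 0.112 in WT AP and 524 in MYC AP. Svs4 and Svs5, which encode seminal vesicle secretory proteins, had 293 and 212 FPKM in MYC AP and were listed at 0 in the 3 WT libraries. The list summed to 11.3 FPKM in MYC DLP and in VP to 0.0264 FPKM (WT) and 0.00862 FPKM (MYC). These values stand beside the 5 members that were higher in MYC AP, and their part in that was not tested.

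For each member the 2 genes with the most similar pattern were looked up among the 5289 genes whose mean reached 10 FPKM, by Pearson's r of log2(FPKM + 1) over the 6 libraries. These are 6 libraries of 2 mice and many genes were searched, so the measure only describes likeness. Pbsn was most like Bag5 and B4galt4, Msmb like Tango2 and Pigyl, and Defb50 like Tango2 and Gsta4, so that the pair that went in the same direction in each lobe shared Tango2. Spink1 was most like Pygb and Tceal9, and Spink5 like Tceal8 and Ddit3. Tgm4 was most like Gm5615, at 150, 85.7 and 0 FPKM in the AP, DLP and VP of WT, against 110.3, 19.1 and 0 FPKM in those of MYC, and Cyp27a1. The gene 9530002B09Rik was most like Paxx and Srp54a, and Azgp1 like Yipf2 and Iscu. Sbp was most like Cd47 and Plxnb2. Sbpl was most like Eif3e and Rps23, with Rps23, a ribosomal protein gene, at 697, 787 and 759 FPKM in the AP, DLP and VP of WT, against 920.4, 1253 and 1948 FPKM in those of MYC. All 20 of these r were at least 0.976. Those of Sbp, Sbpl and Spink1 include values listed at 0, which can be failed estimates, so the genes named for them depend on those values. A high r does not mean a like size of difference, as Bag5 ran from 8.04 to 13.1 FPKM and Gm5615 from 0 to 150 FPKM.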

How the data were processed

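The authors dissociated whole prostate lobes, prepared stranded poly(A) libraries and sequenced single-end reads of 75 bases. Per the submitters' processing notes, reads were converted with bcl2fastq 2.18, mapped to mm10 with STAR and quantified per gene with Cufflinks. The authors deposited 1 table of FPKM, whose values are not whole numbers although the methods call them read counts, so no count model was used. Samples were grouped by title. Members and gene lists were chosen with earlier results of these data known. From the FPKM, log2(FPKM + 1) ratios were computed for the 12361 genes whose mean over the libraries reached 1 FPKM, and a 2-fold threshold counted differences. Members are named in every library, with the 2 genes most like each, and for symbol families and fixed lists the counts and the 3 genes with the highest mean, except that further genes of those counts and neighbours in the genome were named after their values were seen. With 1 library per group, no test was run. The androgen targets were limited, after their values were seen, to the 10 that were not also luminal markers, and medians of the full list of 14 are given beside them. Some genes of the lists are not reported here.

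Depth was estimated from the steps in FPKM below 0.3 of genes with 1 transcript of 1 exon longer than 600 bases (transcript length less 200 bases). At the depth chosen, 33.3% to 50.3% of the 147 to 191 such values of a library were a whole read number to within 0.03, so depths and the 95% binomial (Clopper-Pearson) intervals built on them are estimates. Alternatives were 4 other scalings, a pseudocount of 0.1, no filter or a mean of at least 10 FPKM, a 4-fold threshold, Sbp and Sbpl summed, and other denominators of the share. Leaving out Sbp and Sbpl was added after seeing the data. Computations ran in Python 3.11.15 (pandas 2.3.3, numpy 2.4.6, matplotlib 3.10.9, scipy 1.17.1).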

Additional observations from a re-analysis of the deposited data

Results flagged for a closer look

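Several members had opposite differences between MYC and WT in 2 lobes of the same pair of mice. Values are log2 ratios of (FPKM + 1), MYC over WT, and each difference between lobes rests on 1 library per lobe and genotype and was not tested. Msmb had 1.51 in AP, -4.63 in DLP and -6.43 in VP, so that DLP minus AP was -6.14 and VP minus AP -7.94. For Defb50 the AP log2 ratio was 1.66, that of DLP -1.93 and that of VP -4.34, and DLP minus AP was -3.60 and VP minus AP -6.00. Spink1 had 3.01 in AP, where WT is listed at 0, 6.07 in DLP and -6.46 in VP, with VP minus AP at -9.47 and VP minus DLP at -12.5. Spink5 had 3.29 in DLP and -5.16 in VP, and VP minus DLP was -8.45.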

How the results depend on the processing

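No paired analysis was possible because each group has 1 library, with no replicate to pair or to leave out. The 43 log2 ratios of members past 2-fold, in 3 comparisons of MYC with WT and 3 of WT lobes, were recomputed under 4 scalings and a pseudocount of 0.1, 215 values in all. All 215 kept their sign and 213 stayed past 2-fold. The 2 that did not were those of 9530002B09Rik in VP (-0.92) and in WT VP against WT DLP (0.83), relative to Krt8 and Krt18, both of which were higher in WT VP than in WT DLP and MYC VP. Spink5 in AP passed 2-fold relative to these keratins (1.07) and with the pseudocount (1.35), against 0.81 as deposited, and 10 values of WT lobes also came to pass it. That scaling moved the median log2 ratio of all genes to 0.30 in AP, -0.17 in DLP and 0.22 in VP, and to -1.41 in WT VP against WT DLP. The share of all genes at least 2-fold lower in MYC VP ranged from 2.51% relative to the keratins to 10.9% with equal sums of FPKM without the members, beside 6 and 7 members.

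With a 4-fold threshold 3 members were higher in MYC AP (0.542% of all genes), 5 were lower in DLP (0.631%) and 6 in VP (0.922%). Without Sbp and Sbpl, a choice made after seeing the data, 3 were higher in AP, 2 in DLP and 0 in VP, and the members' share of the FPKM sum was 1.87%, 1.29% and 0.792% in MYC AP, DLP and VP. Without microRNA and small nucleolar RNA rows the share was 2.03%, 10.5% and 12.2% in WT AP, DLP and VP and 1.95%, 1.59% and 5.16% in MYC AP, DLP and VP. Over rows with a mean of at least 1 FPKM it was 10.3% in WT DLP, 12.0% in WT VP, 1.89% in MYC AP and 4.98% in MYC VP. The fewer rows or genes counted account for these differences by construction. Depth limits values under about 1 FPKM most, and WT AP has the fewest reads.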
